A study of Homo sapiens with 6 samples.

Results

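KDM6B, KDM6A, EZH1 and EZH2 encode enzymes that remove or write methyl groups on lysine 27 of histone H3 (H3K27). They were found by their symbols in the raw count tables, and all 4 were present among 56637 gene symbols. RNA had been sequenced from MM.1S, a human line of multiple myeloma, a cancer of plasma cells. Cells in both groups had been infected with a lentivirus carrying a short hairpin RNA (shRNA) and selected with puromycin. In 3 libraries the hairpin was aimed at KDM6B (shKDM6B), and in 3 control libraries at luciferase, a gene that human cells lack (shLuc). The labels name 1 target per group and no rescue, so loss of KDM6B and other effects of the hairpin cannot be told apart. Whether the cultures of a group stayed separate after infection is not stated, so the p-values rest on a spread among libraries that could be technical only. Values per library are listed in the order of replicates 1, 2 and 3, shLuc before shKDM6B.

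Trimethylation of H3K27 marks genes silenced by Polycomb proteins. Polycomb repressive complex 2 (PRC2) writes the mark through 1 of 2 related methyltransferases, EZH2, which is high in dividing cells, or EZH1, which is also present in resting cells. KDM6B (JMJD3) and KDM6A (UTX) share a catalytic JmjC domain that takes the methyl groups off again. KDM6A works within the KMT2C and KMT2D methyltransferase complexes, and its gene is recurrently mutated in myeloma. KDM6B is induced by inflammatory and developmental signals. The comparison asks how far the hairpin lowered KDM6B in each library, and whether the other eraser or the writers were higher or lower beside it.

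Totals ran from 7338393 to 8996159 counts in the shLuc libraries and from 7952156 to 9848351 in the shKDM6B libraries. All 8 plasma cell markers had at least 5 counts on average, summing to 2516 to 2695 counts per 1000000 counts (CPM) in shLuc and 2398 to 2636 in shKDM6B. Single markers moved both ways within these sums. CD38 had 716, 905 and 991 counts in shLuc and 591, 672 and 716 in shKDM6B. PRDM1 had 2946, 3408 and 3360 counts in shLuc and 3456, 3675 and 4046 in shKDM6B. Of the mature B cell genes, CD22 was at 0 in every library and MS4A1 had at most 1 count, while CR2, a complement receptor, had 660 to 982 counts and made up almost all of that list's 83.0 to 100.3 CPM. Epithelial markers, 8 in all, summed to 11.2, 2.60 and 3.22 CPM in shLuc against 29.7, 42.3 and 2.03 CPM in shKDM6B. The high sums came from keratins: KRT5 had 28, 4 and 0 counts in shLuc and 53, 110 and 0 in shKDM6B. EPCAM, another epithelial gene, ran the other way, with 11, 12 and 20 counts in shLuc and 7, 5 and 13 in shKDM6B. The fibroblast gene COL1A1 was also highest in shKDM6B replicates 1 and 2. It had 5, 4 and 1 counts in shLuc and 9, 16 and 4 in shKDM6B. DCN, another fibroblast gene, had 1 count in shLuc replicate 1 and 0 in all other libraries. Calls of named genes that end without the 3 libraries with the highest sums (shLuc replicate 1, shKDM6B replicates 1 and 2) are given below, in a fit of 2 shLuc libraries and 1 shKDM6B library.

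Each pair of enzymes comes from related genes, so the coding sequences were compared to see whether short reads could be assigned to the wrong member. The windows below are the places of longest identity between the longest coding sequences of each pair in GENCODE release 29, 5′ to 3′, with the identical run in capitals. The KDM6B window spans coding bases 4396 to 4475 and the KDM6A window bases 3748 to 3827.
KDM6B: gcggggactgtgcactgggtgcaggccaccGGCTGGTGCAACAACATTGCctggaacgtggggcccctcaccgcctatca
KDM6A: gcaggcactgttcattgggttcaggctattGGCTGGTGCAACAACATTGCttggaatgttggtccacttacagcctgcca
The EZH1 window spans coding bases 1465 to 1544 and the EZH2 window bases 1477 to 1556.
EZH1: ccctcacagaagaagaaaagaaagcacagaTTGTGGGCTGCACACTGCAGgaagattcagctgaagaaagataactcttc
EZH2: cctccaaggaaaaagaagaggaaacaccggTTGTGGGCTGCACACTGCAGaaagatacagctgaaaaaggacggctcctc

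In both pairs the longest shared run was 20 bases, and no longer run was found over any annotated transcripts of the 2 genes. Over aligned coding positions, KDM6B and KDM6A were 60.5% identical and EZH1 and EZH2 70.2%. A read longer than the shared run that matches exactly therefore fits 1 member of a pair. Other copies are closer. KDM6A shares runs of up to 71 bases with UTY, its relative on the Y chromosome, and EZH2 shares up to 73 bases with the pseudogene EZH2P1. EZH2P1 had 1, 0 and 1 counts in the shLuc libraries and 0 in each shKDM6B library, against at least 1010 counts of EZH2 in any library. No exon of another annotated gene overlapped the exons of the 4 genes in that annotation. The genes next to KDM6B, DNAH2 and TMEM88, had between 0 and 3 counts per library. Those next to KDM6A, DUSP21 and DIPK2B (listed as CXorf36), had at most 1. Next to EZH1, RAMP2 had 0 to 3 counts and CNTNAP1 170 to 244, with a log2 fold change of -0.15 (SE 0.088). Next to EZH2, CUL1 had 1551 to 2046 counts and PDIA4 2990 to 3501, with log2 fold changes of 0.014 and -0.018. Whether reads of such neighbours were counted to the members was not tested. RefSeq (GRCh38) lists further genes that overlap the spans of members: LOC124904106 and LOC107987244 for KDM6B, MIR6780A and RPL34P30 for EZH1, and RNU7-20P for EZH2. RNU7-20P had 0 to 2 counts per library, and the other 4 symbols were not matched to the counts.

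Per kb of exon the writers stood above the erasers. In shLuc, EZH2 was at 30.1 ± 0.8 CPM per kb, EZH1 at 18.5 ± 0.4, KDM6A at 9.02 ± 0.36 and KDM6B at 7.41 ± 0.67 (SD, n = 3 each). In the shKDM6B libraries the order was the same, with EZH2 at 30.8 ± 0.5, EZH1 at 16.9 ± 1.0, KDM6A at 7.94 ± 0.63 and KDM6B at 4.49 ± 0.33 CPM per kb (SD, n = 3 each). Neighbours in this order did not overlap in either group. KDM6A and KDM6B were the closest, with shLuc ranges of 8.67 to 9.38 and 6.63 to 7.86 CPM per kb. Among tested genes with a known exon length, the percentile of EZH2 by CPM per kb lay between 81.9 and 83.9 in the 6 libraries. The percentile of KDM6B was 39.2 to 44.0 in shLuc and 30.6 to 32.03 in shKDM6B. The exon lengths are the union of all annotated exons, so these levels assume that the cells use all of them.

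**Figure D1:**
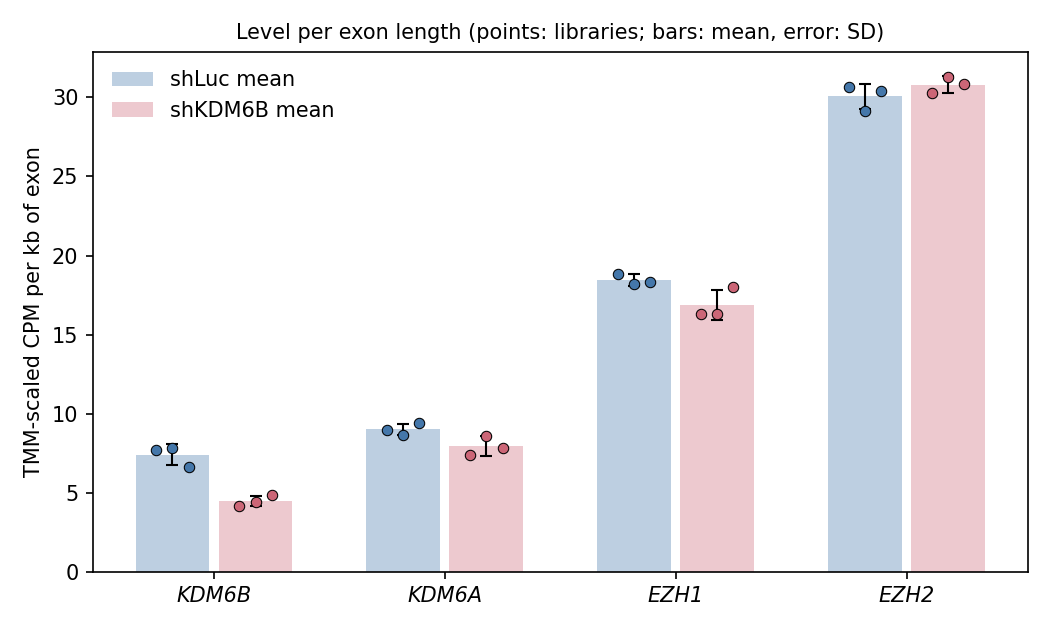
Expression of the 4 genes as TMM-scaled CPM per kb of exon (linear axis) in the 3 shLuc and 3 shKDM6B libraries; points are libraries, bars the mean and whiskers the SD. EZH2 is the most abundant at about 30.1 in shLuc, and KDM6B falls from 7.41 to 4.49.

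KDM6B, the target of the hairpin, was lowered but not removed. The control libraries held 409, 505 and 437 of its reads, and the knockdown libraries 239, 270 and 348. Scaled for depth, these were 56.2, 57.0 and 48.2 CPM in shLuc and 30.4, 32.3 and 35.1 CPM in shKDM6B. The groups did not overlap, as was so for 48.4% of all tested genes (23.9% with shKDM6B lower and 24.5% with it higher). The nearest libraries of the groups were the lowest control, shLuc replicate 3, and the highest knockdown library, shKDM6B replicate 3. KDM6B fell by 0.71 on the log2 scale (SE 0.073, edgeR quasi-likelihood test, adjusted p = 7.72e-08), to 61.1% of the control with a 95% interval of 55.0% to 67.9%.

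Taken library by library, the KDM6B left was 56.8%, 60.2% and 65.6% of the pooled shLuc libraries in shKDM6B replicates 1, 2 and 3. The 95% counting intervals were 49.3% to 65.2%, 52.6% to 68.7% and 58.1% to 73.8%. All 3 intervals overlap, but they share the same pooled controls, and the shKDM6B libraries were not tested against each other. The shLuc libraries, each set against the other 2 and so against a smaller pool, stood at 106.9%, 110.3% and 85.0%. As percents of the mean of all 3 shLuc libraries, they stood at 104.4%, 106.0% and 89.5%. On that scale the shKDM6B libraries stood at 56.6%, 60.0% and 65.3%. The coefficient of variation of KDM6B was 9.10% in shLuc and 7.28% in shKDM6B. Over the 9 pairs of 1 shKDM6B and 1 shLuc library the KDM6B left ran from 53.3% to 72.9%, with a median of 61.6%. Counting intervals treat reads as independent molecules and cover counting error only.

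The size of the fall held up across the ways of scaling. The ratio of group means was 60.6% with TMM scaling, 60.2% on plain totals, 60.7% in the authors' deposited normalized values and 62.2% with scaling by sparsely read genes (under 0.03 counts per base of exon). Without the 3 libraries with the most keratin counts the log2 fold change was -0.58 (edgeR adjusted p = 1.25e-07) in a fit that lends its 1 shKDM6B library the spread of the controls.

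**Figure D2:**
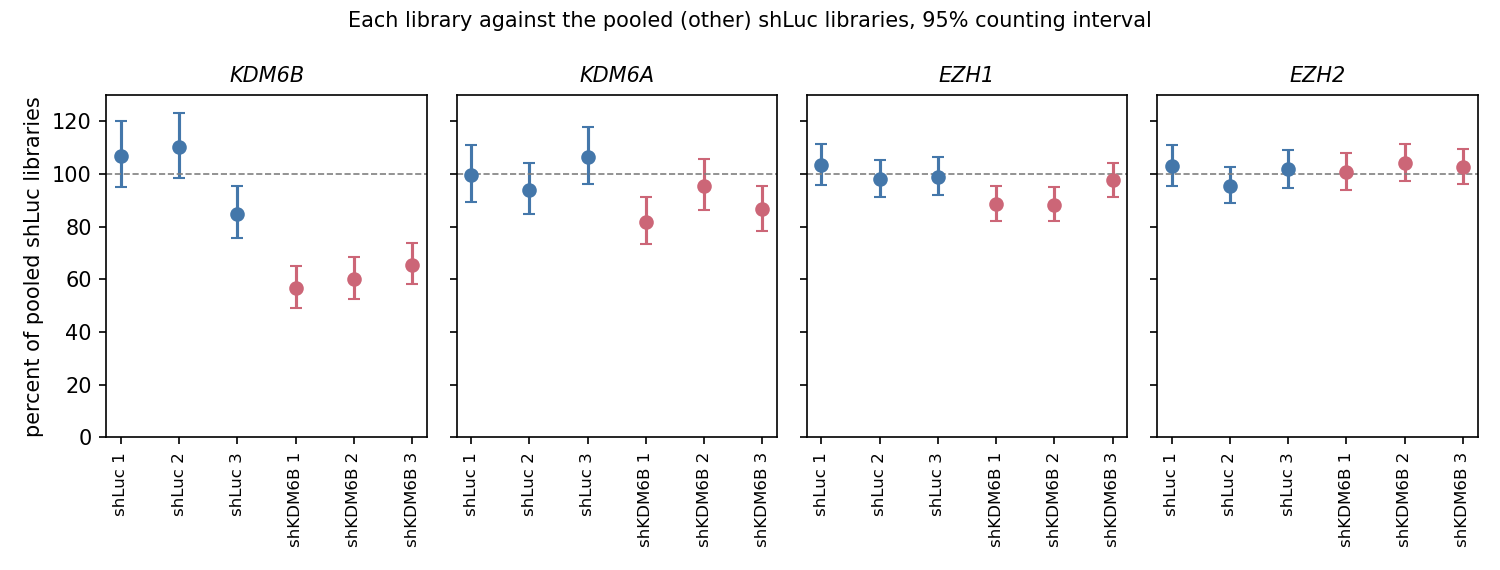
Each library's count of a gene, scaled for depth, as a percent of the pooled shLuc libraries (for a shLuc library, of the other 2), with 95% counting intervals; the dashed line is 100%. KDM6B stands at 56.8% to 65.6% in the shKDM6B libraries, while EZH2 stays between 95.6% and 104.2% in all 6.

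Set among all genes, the KDM6B fall was not extreme. Of 13839 genes tested, 5405 (39.1%) passed an adjusted p of 0.05, 2783 of them higher (20.1%) and 2622 lower (18.9%). A more negative log2 fold change than that of KDM6B was found for 613 genes, 4.43% of those tested, and 574 of these passed. Of the 4 enzymes, 3 passed, all lower, but a call alone says little here given the background.

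KDM6A, the other H3K27 demethylase among the members, was not higher where KDM6B was lowered. It had 468, 548 and 608 counts under the control hairpin and 414, 515 and 553 under the KDM6B hairpin. The depth-scaled levels were 64.3, 61.9 and 67.0 CPM in shLuc and 52.7, 61.5 and 55.8 CPM in shKDM6B. The groups just failed to overlap, with shKDM6B replicate 2 within 1% of the lowest control: over the 9 pairs of libraries the ratio reached 99.4%. KDM6A fell by 0.18 on the log2 scale (SE 0.059, edgeR adjusted p = 0.0164), to 88.05% of control with a 95% interval of 80.9% to 95.8%. The call ended under the DESeq2 Wald test (adjusted p = 0.0830), with scaling by sparsely read genes (adjusted p = 0.0924) and without the 3 libraries with the most keratin counts (log2 fold change -0.21, adjusted p = 0.0568). It also ended without shLuc replicate 3 (adjusted p = 0.0607), shKDM6B replicate 1 (adjusted p = 0.0926) or shKDM6B replicate 3 (adjusted p = 0.0534), and over the 6 libraries left out in turn the log2 fold change ran from -0.25 to -0.14.

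EZH1, the writer that is also used in resting cells, was slightly lower. Controls gave 960, 1126 and 1162 counts and knockdown libraries 897, 952 and 1245. That is 131.8, 127.2 and 128.0 CPM in shLuc and 114.2, 113.8 and 125.7 CPM in shKDM6B. Both low values belong to shKDM6B replicates 1 and 2, which had the highest keratin counts, and shKDM6B replicate 3 lay just under the controls. The highest value was that of shLuc replicate 1, the control with the most keratin counts. Whether EZH1 and keratin counts are linked was not tested. EZH1 fell by 0.13 on the log2 scale (SE 0.047, edgeR adjusted p = 0.0362), to 91.6% of control with a 95% interval of 85.7% to 98.0%. Without the 3 libraries with the most keratin counts the log2 fold change was -0.02 (95% interval -0.15 to 0.11, adjusted p = 0.856). The call also ended with no filter on low counts (0.0552), by DESeq2 (0.120), with scaling by sparsely read genes (0.354), and when a single library was left out: shLuc replicate 1 (0.0928) or 2 (0.0594), or shKDM6B replicate 1 (0.136) or 2 (0.159), all adjusted p values.

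EZH2, the main writer in dividing cells, showed no change past the threshold. There were 1010, 1168 and 1247 EZH2 counts in shLuc, and 1075, 1185 and 1382 in shKDM6B. These were 138.7, 131.9 and 137.4 CPM in shLuc and 136.8, 141.6 and 139.5 CPM in shKDM6B, and the groups overlapped. The log2 fold change was 0.036 (SE 0.042, edgeR adjusted p = 0.543). Its 95% interval reached from 96.4% to 109.0% of the control, or -0.052 to 0.124 on the log2 scale. A larger rise or fall lies outside it in this fit only. The interval was -0.067 to 0.219 with scaling by sparsely read genes and -0.085 to 0.149 by DESeq2. The coefficient of variation of EZH2 was 2.65% in shLuc and 1.72% in shKDM6B, against 9.10% and 7.28% for KDM6B.

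EZH2 and EZH1 were also the densest in reads, with 0.260 and 0.151 counts per base of exon, against 0.0725 for KDM6A and 0.0507 for KDM6B. Scaling by sparsely read genes moved the median log2 fold change over all genes from -0.0053 to 0.036. The 4 members moved upward with it, to -0.67 for KDM6B, -0.14 for KDM6A, -0.09 for EZH1 and 0.08 for EZH2. With that scaling KDM6B alone of the 4 passed.

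**Figure D3:**
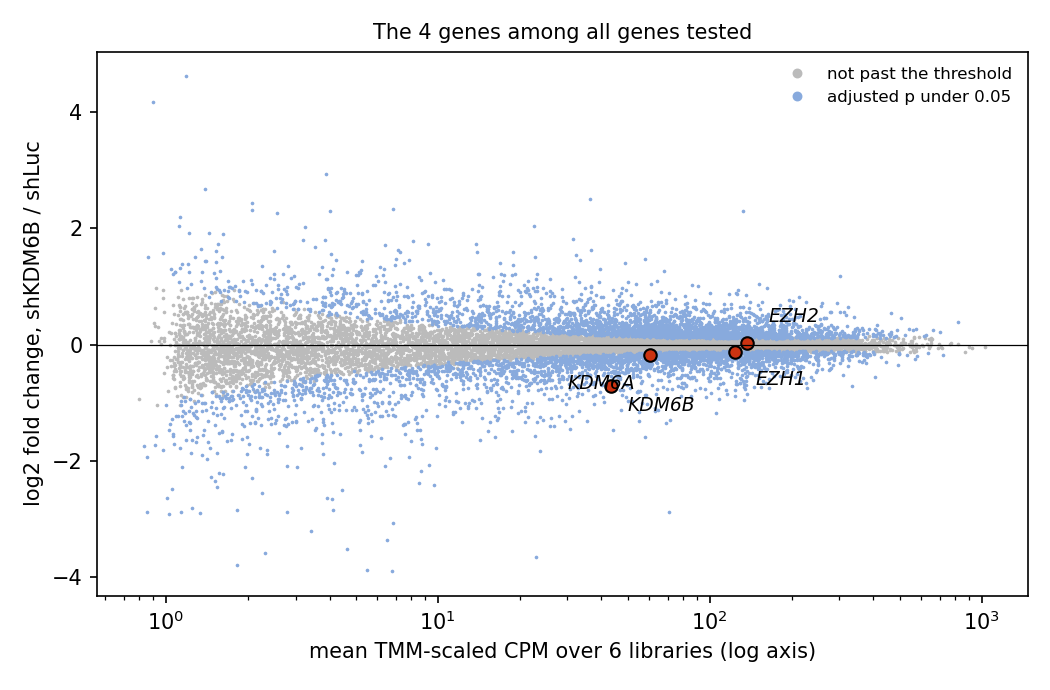
Log2 fold change (shKDM6B over shLuc) against mean TMM-scaled CPM (log axis) for the 13839 genes tested; blue points passed an adjusted p of 0.05 and red circles are the 4 enzymes. KDM6B lies at -0.71, below KDM6A, EZH1 and EZH2, with 613 genes lower still.

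Ratios within a library do not depend on the scaling between libraries. The KDM6B to KDM6A ratio of raw counts was 0.874, 0.922 and 0.719 in shLuc, against 0.577, 0.524 and 0.629 in shKDM6B. The ratio was lower in every shKDM6B library and fell 0.690-fold on average, so KDM6B was lowered relative to its closest relative as well. KDM6B to EZH2 went from 0.405, 0.432 and 0.350 to 0.222, 0.228 and 0.252, or 0.592-fold. EZH2 to EZH1 went the other way, from 1.05, 1.04 and 1.07 to 1.198, 1.245 and 1.11, a balance 1.12-fold further toward EZH2. The groups did not overlap in any of the 3 ratios. Those to KDM6A and to EZH2 carry the fall of KDM6B itself, whose groups did not overlap either. How often the ratios of other gene pairs fail to overlap was not computed. Each of the 3 had an exact two-sided permutation p of 0.1 (adjusted over the 3 ratios, 0.1), the smallest that 3 against 3 libraries can give. Without the 3 libraries with the most keratin counts the log2 difference of EZH2 to EZH1 was 0.07 in place of 0.17, and that of KDM6B to KDM6A was -0.37 in place of -0.53.

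**Figure D4:**
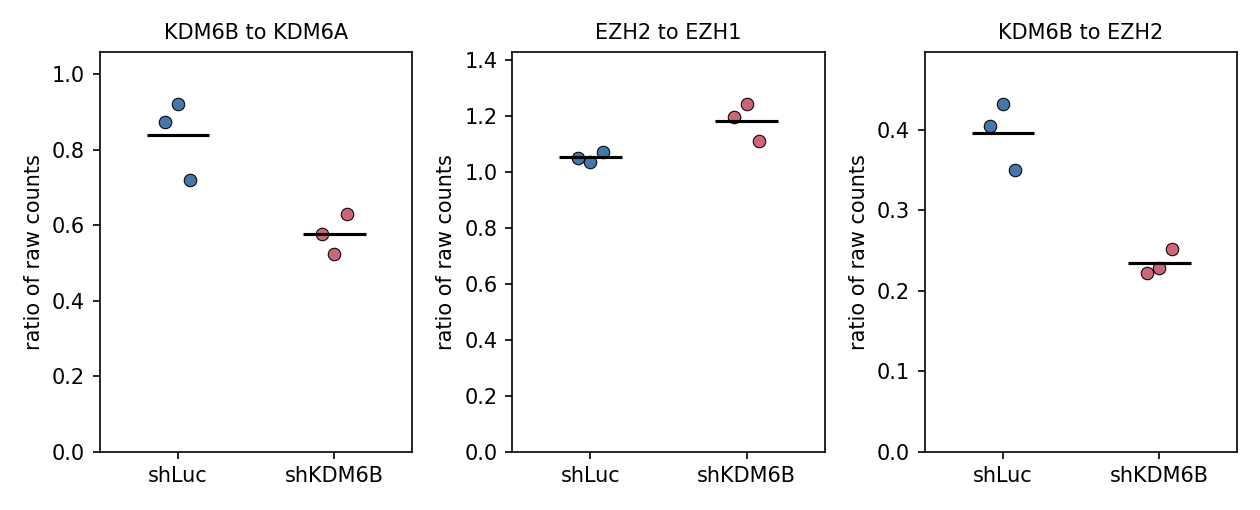
Ratio of raw counts of 2 genes within each library (linear axes from 0), in shLuc and shKDM6B; points are libraries and lines the group means. KDM6B to KDM6A goes from 0.838 to 0.577 and KDM6B to EZH2 from 0.396 to 0.234, while EZH2 to EZH1 goes from 1.05 to 1.18.

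Among the partners of EZH1 and EZH2, SUZ12 and EPOP rose and the other changes were smaller. Of 12 genes of PRC2 subunits and cofactors, 11 were tested, 4 were higher, 1 was lower and 6 did not pass; the twelfth, EZHIP (listed as CXorf67), had at most 3 counts in a library. The median log2 fold change was 0.06, against -0.01 over all genes, and 45.5% of those tested passed, near the 39.1% of all genes. SUZ12, a core subunit that EZH1 and EZH2 need for activity, went from raw counts of 962, 1179 and 1300 to 1475, 1650 and 1863. Its mean level was 136 ± 6 CPM in controls and 191 ± 5 CPM after knockdown (SD, n = 3 each), a rise of 0.49 on the log2 scale (SE 0.045, edgeR adjusted p = 1.37e-08). A pseudogene of SUZ12 shares runs of up to 178 bases with it in GENCODE (as SUZ12P1), so short reads could be assigned to the wrong copy. That copy, under its RefSeq synonym SUZ12P, had 224, 241 and 300 counts in shLuc and 216, 257 and 303 in shKDM6B. EPOP (listed as C17orf96), a cofactor found in some PRC2 complexes, went from 445, 625 and 577 to 761, 791 and 946 counts. Controls stood at 65.1 ± 4.9 CPM and knockdown libraries at 95.6 ± 1.2 CPM (SD, n = 3 each), a rise of 0.55 (SE 0.052, edgeR adjusted p = 2.00e-08).

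EED, the core subunit that binds trimethylated H3K27, fell by 0.20 on the log2 scale (SE 0.057, edgeR adjusted p = 0.00785). The cofactor AEBP2 rose by 0.17 (SE 0.057, edgeR adjusted p = 0.0244) and PHF1, a subunit that helps bring PRC2 to chromatin, by 0.13 (SE 0.047, edgeR adjusted p = 0.0354), named because it completes the 5 that passed. SUZ12 and EPOP kept their calls under every alternative run. EED lost its call by DESeq2 (adjusted p = 0.0715), with scaling by sparsely read genes (adjusted p = 0.0708) and without the 3 libraries with the most keratin counts (adjusted p = 0.0938). PHF1 lost its call without the same 3 libraries (adjusted p = 0.166), with upper-quartile scaling (adjusted p = 0.0708) and with no filter on low counts (adjusted p = 0.0829). By DESeq2, AEBP2 (adjusted p = 0.145) and PHF1 (adjusted p = 0.206) did not pass, and leaving out single libraries also ended both: AEBP2 without shLuc replicate 1 or 2 or shKDM6B replicate 3 (adjusted p up to 0.128), and PHF1 without any of these or shKDM6B replicate 1 (adjusted p up to 0.103).

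KDM6A acts inside the KMT2C and KMT2D complexes, which methylate lysine 4 of histone H3. Of 9 genes of its partners there, 2 were higher, 0 lower and 7 did not pass (22.2% past the threshold, against 39.1% of all genes, and a median log2 fold change of -0.0017). RBBP5, a core subunit of all the KMT2 complexes, had 453, 606 and 635 counts in controls and 757, 783 and 942 after knockdown. Its level of 66.9 ± 4.1 CPM rose to 94.99 ± 1.40 CPM (SD, n = 3 each), by 0.50 on the log2 scale (SE 0.050, edgeR adjusted p = 4.43e-08). PAXIP1, a subunit of the KMT2C and KMT2D complexes, rose by 0.14 (SE 0.047, edgeR adjusted p = 0.0228). PAXIP1 lost its call by DESeq2 (adjusted p = 0.139) and without shLuc replicate 1 (0.115), shKDM6B replicate 1 (0.0538) or shKDM6B replicate 2 (0.110), and without the 3 libraries with the most keratin counts its log2 fold change was 0.07 (adjusted p = 0.551).

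The remaining JmjC genes, relatives of KDM6A and KDM6B that mostly act on other residues or proteins, went both ways. Of 19, 18 were tested, 5 were higher, 4 lower and 9 did not pass, with a median log2 fold change of 0.0072. The 9 of 18 that passed stand beside 39.1% of all genes, and RIOX1 (listed as C14orf169) was at 0 in every library. The split became 5 higher and 1 lower with scaling by sparsely read genes, and 4 higher and 3 lower without the 3 libraries with the most keratin counts. KDM7A, which is known to act on H3K9 and also on H3K27, had 92, 110 and 120 counts in shLuc and 127, 141 and 208 in shKDM6B. That is 12.8 ± 0.4 CPM and 18.0 ± 2.6 CPM (SD, n = 3 each), a rise of 0.51 (SE 0.11, edgeR adjusted p = 0.00108). RIOX2 (listed as MINA), a ribosomal oxygenase, rose by 0.29 (SE 0.043, edgeR adjusted p = 1.05e-05) and JMJD6, a hydroxylase of splicing factors, by 0.32 (SE 0.057, edgeR adjusted p = 0.000102). JMJD1C, a relative of the H3K9 demethylases, was the lowest of those that passed and fell by 0.30 (SE 0.054, edgeR adjusted p = 0.000120). No member of this list that passed fell as far as KDM6B.

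**Figure D5:**
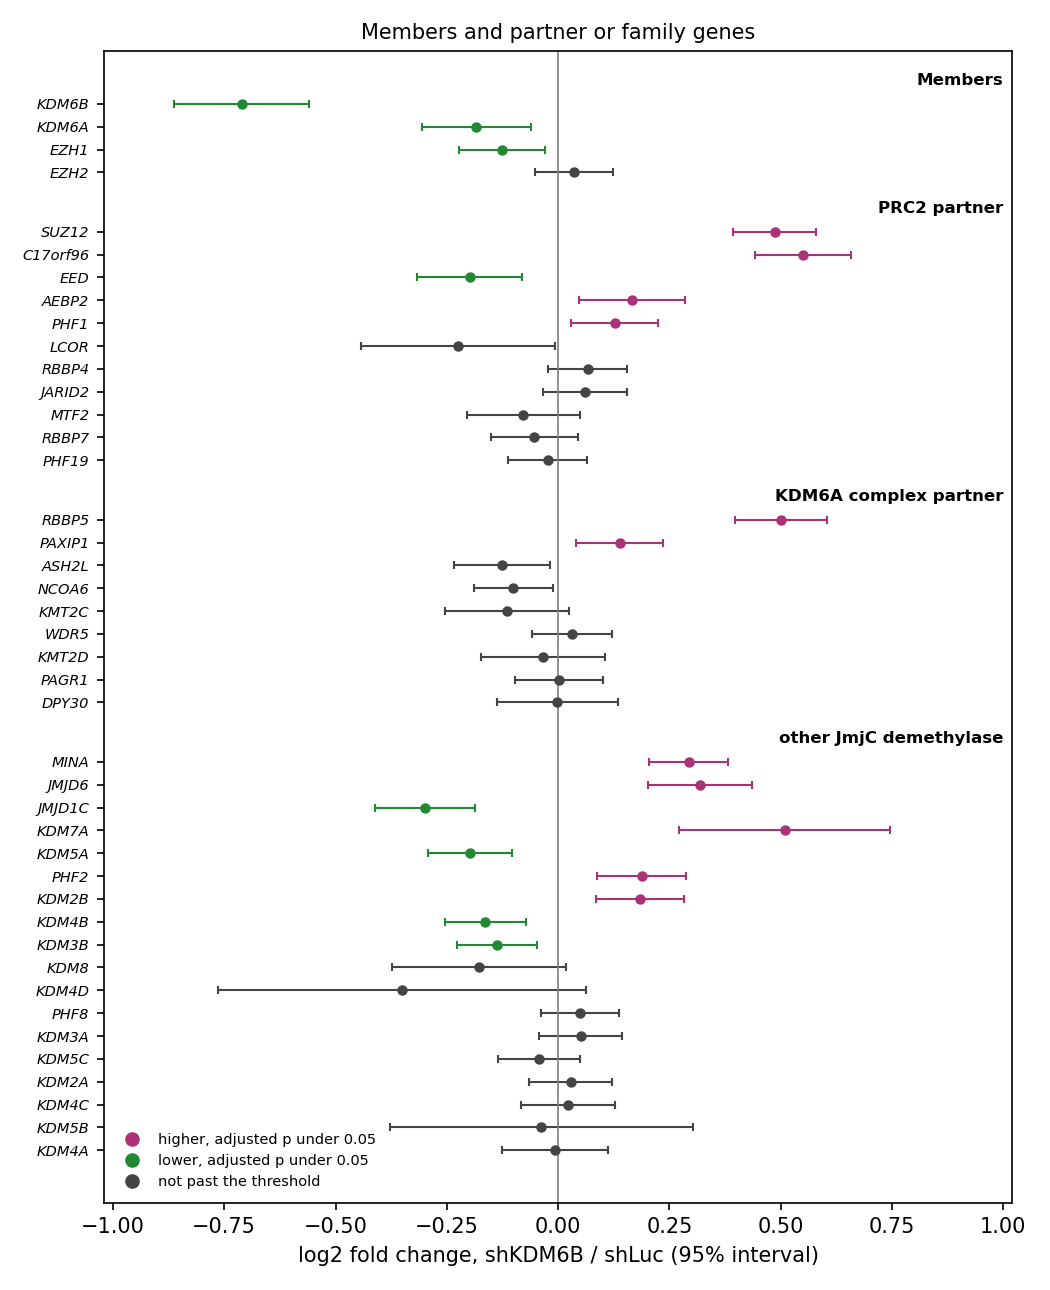
Log2 fold change (shKDM6B over shLuc) with its 95% interval for the 4 enzymes, the 11 tested PRC2 partners, the 9 KDM6A complex partners and the 18 tested JmjC relatives; colour shows the direction of genes with an adjusted p under 0.05. KDM6B has the most negative value at -0.71, and C17orf96 (0.55), KDM7A (0.51), RBBP5 (0.50) and SUZ12 (0.49) the highest.

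The genes whose levels over the 6 libraries ran closest to those of KDM6B were chosen by the smallest root mean square distance between centred log2 CPM, among 11217 genes with a mean of at least 5 CPM. They were GCSAM, a germinal centre B cell signalling protein (distance 0.039), the interferon-induced enzyme OAS1 (0.054), ILDR1 (0.057), the glycosyltransferase GALNT3 (0.060) and KCTD9 (0.064); the median distance over all genes compared was 0.383. GCSAM had 403, 487 and 445 raw counts in shLuc and 242, 282 and 341 in shKDM6B, almost the counts of KDM6B itself, and its log2 fold change was -0.68 (SE 0.067). The 5 log2 fold changes lay between -0.75 and -0.64. With 6 libraries in 2 groups, this likeness is mostly that of genes that fell by a similar amount.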

How the data were processed

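Total RNA of 6 libraries of MM.1S cells, 3 shLuc and 3 shKDM6B, was sequenced after library preparation with a kit whose name in the labels does not mark strand. The authors deposited raw counts per gene symbol for each library and 1 table of normalized values; this deposited signal, on a linear scale, was tested to be the counts over a single factor for each library. The tools named per the submitters' processing notes are STAR, featureCounts and DESeq, and the build is GRCh37 (hg19). Their versions, the annotation, the read length, the strand setting and how multi-mapping or duplicate reads were handled are not stated in the labels. A line with no count, whose gene name reads as a date, was dropped from each count file.

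The test was edgeR's (version 4.0.16, R 4.3.3, with filterByExpr, TMM scaling, glmQLFit and glmQLFTest), shKDM6B against shLuc, with Benjamini-Hochberg adjustment over all 13839 genes tested and a threshold of 0.05; the script was tested on simulated data. The SE is that implied by the quasi-likelihood statistic. Exon lengths and coding sequences came from GENCODE release 29 (GRCh38), matched by symbol; coordinates are not given, since the counts use GRCh37. Alternatives were other scalings and filters, DESeq2 1.42.0, limma 3.58.1 (voom, and trend on log2 of the deposited values plus 1), the replicate number as a block, and libraries left out. Over genes with under 0.03 counts per base, libraries within groups differed slightly beyond counting noise (chi-square per degree of freedom 1.08 to 1.33). This was not computed for denser genes, the 4 members among them. Each library counted as 1 sample.

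The members and gene lists were chosen with earlier results of these data known. Named genes are the 4 members, up to 4 genes past the threshold with the smallest p per list, the 5 nearest to KDM6B in pattern, and genes next to a member.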

Additional observations from a re-analysis of the deposited data

How the results depend on the processing

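The KDM6B fall and the direction of the 3 ratios held under all alternatives run. The KDM6B percent of control was computed only with other scalings and with 1 library left out, where it ran from 57.6% to 62.6%. It was not computed without the 3 libraries with the most keratin counts, where the log2 fold change was -0.58 in place of -0.71. Leaving out each library in turn, log2 fold changes ran from -0.79 to -0.66 for KDM6B, from -0.25 to -0.14 for KDM6A, from -0.18 to -0.10 for EZH1 and from 0.01 to 0.05 for EZH2. The KDM6A change no longer passed at -0.14 with scaling from genes with under 0.03 counts per base, -0.19 by DESeq2, -0.21 without the 3 libraries with the most keratin counts and, at an adjusted p threshold of 0.01, -0.18. The EZH1 change no longer passed at -0.089, -0.13, -0.021 and -0.13 under the same 4, and at -0.12 with no filter on low counts. The cause was not tested. The PRC2 partners that passed numbered 2 by DESeq2, 3 without the 3 libraries, 3 at 0.01 and 3 to 5 with 1 library left out, against 5. The KDM6A complex partners that passed numbered 4 with upper-quartile scaling (2 higher, 2 lower), 1 by DESeq2, 1 without the 3 libraries, 1 at 0.01 and 1 to 3 with 1 library left out, against 2 higher and 0 lower; single lower calls appeared without shLuc replicate 3 or shKDM6B replicate 2. KDM6B had 239 to 505 counts per library, which limits how finely knockdown can be compared between libraries. Over all genes, upper-quartile scaling gave 2514 higher and 2913 lower, and scaling by such sparsely read genes 2936 higher and 1934 lower.

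The values do not settle whether the replicate numbers pair the libraries. Correlations of deviations between same-numbered libraries were 0.12, -0.07 and 0.17, against -0.20 to 0.08 between libraries of different number. With the replicate number as a block, 6218 genes passed in place of 5405, the KDM6A complex partners that passed numbered 5 (2 higher, 3 lower), and the 4 members kept their calls (KDM6A, adjusted p = 0.00626; EZH1, adjusted p = 0.00994). Replicates 1 and 3 of both groups correlated best with their own number, and replicate 2 did so in neither group. In both groups replicate 1 also had the fewest counts and replicate 3 the most. Whether depth shaped the correlations was not tested.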
